A study of Homo sapiens with 6 samples.

Results

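The kallikrein-related peptidases KLK5, KLK6, KLK7, KLK8, KLK9, KLK10, KLK11, KLK12, KLK13 and KLK14 are secreted serine proteases whose genes lie side by side on chromosome 19. These 10 genes were taken by symbol from a count table of 26334 genes, and all 10 were found. RNA was sequenced from MCF10DCIS.COM (hereafter MCF10DCIS), a human breast cancer cell line derived from the MCF10A series and used as a model of ductal carcinoma in situ. The control cells (shLuc, 3 libraries) carried the vector pRSI-U6-shLuc-UbiC-TagRFP-2A-Puro, with a hairpin against luciferase. The silenced cells (shWDR5, 3 libraries) carried the same vector with a hairpin against WDR5, a scaffold of the complexes that methylate lysine 4 of histone H3. The study's methods describe a pair of pooled WDR5 hairpins for this line, whereas the labels name the vector alone. All 6 libraries came from infected cells selected with puromycin at 3 µg/ml and grown in DMEM/F12 medium with 5% horse serum, so the infection and the drug were common to the groups. Each hairpin was expressed from the U6 promoter, and an off-target effect of the WDR5 hairpins cannot be told apart from the loss of WDR5 in this design. The labels number the replicates but do not say that they were separate cultures, so p-values measure the spread between these libraries, which may be technical. The shLuc libraries held 48500509, 38218108 and 39327358 counts and the shWDR5 libraries 47723477, 57640167 and 46097058.

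Kallikreins are made as inactive precursors that need a cut at the amino-terminal end to become active. In the epidermis they form a cascade in which KLK5 activates itself and then others, such as KLK7 and KLK14, and the active enzymes cut the desmosomal proteins that hold the outer cells together. Inhibitors such as LEKTI, the product of SPINK5, hold the cascade in check. In breast epithelium several members are known for levels that differ between normal and malignant cells, and KLK10 was first described as a gene of normal epithelial cells (NES1).

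The members filled a span of 140.944 kb at chr19:51446559-51587502 in the coordinates of the table (the submitters' processing notes name hg19 and GRCh37). All 10 lie on the minus strand in the order KLK5 to KLK14, and the gaps between neighbours ranged from 0.81 kb, between KLK8 and KLK9, to 21.314 kb, between KLK12 and KLK13. No other gene of the table lay within the span or overlapped a member. KLK5 was annotated at chr19:51446559-51456344, KLK6 at chr19:51461887-51472929, KLK9 at chr19:51505769-51512890 and KLK10 at chr19:51516000-51523431.

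The stretches of DNA are shown because they precede the start sites of the members whose RNA changed, 3 that fell and 1 that rose. Each is the 250 bases before the first start site that RefSeq lists for the gene, 5′ to 3′ on the minus strand, in build GRCh38.p14, which is not the build of the count table. The stretches lie at chr19:50953039-50953288 for KLK5, chr19:51009593-51009842 for KLK9, chr19:51019862-51020111 for KLK10 and chr19:50969592-50969841 for KLK6. Capitals mark the letters GGGCGG on either strand, the core of the sites of SP and KLF factors.
KLK5: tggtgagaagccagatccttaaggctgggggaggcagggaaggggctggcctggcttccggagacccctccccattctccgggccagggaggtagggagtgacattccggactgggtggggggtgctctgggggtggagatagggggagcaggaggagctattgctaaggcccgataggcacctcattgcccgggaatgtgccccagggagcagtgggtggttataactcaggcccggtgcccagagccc
KLK9: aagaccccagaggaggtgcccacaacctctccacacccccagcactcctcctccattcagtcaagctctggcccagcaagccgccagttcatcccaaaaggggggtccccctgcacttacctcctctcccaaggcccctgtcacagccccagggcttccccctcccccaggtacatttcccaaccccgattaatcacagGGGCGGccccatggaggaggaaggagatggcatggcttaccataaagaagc
KLK10: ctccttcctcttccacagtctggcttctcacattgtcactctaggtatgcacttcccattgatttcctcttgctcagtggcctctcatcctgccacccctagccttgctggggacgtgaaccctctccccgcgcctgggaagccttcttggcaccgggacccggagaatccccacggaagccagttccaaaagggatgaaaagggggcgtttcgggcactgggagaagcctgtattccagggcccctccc
KLK6: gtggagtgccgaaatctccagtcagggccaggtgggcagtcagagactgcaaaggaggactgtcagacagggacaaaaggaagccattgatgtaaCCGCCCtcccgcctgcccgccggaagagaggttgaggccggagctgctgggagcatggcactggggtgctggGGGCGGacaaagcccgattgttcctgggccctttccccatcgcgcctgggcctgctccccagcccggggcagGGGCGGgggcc
KLK6 held the letters GGGCGG or their reverse complement at 3 places, KLK9 at 1, and KLK5 and KLK10 at none. Across all promoter windows of 300 bases in the RefSeq table (250 before and 50 after the start), 45.0% held at least 1 match. Of the 16 windows listed for 9 members, 10 held it. KLK6, KLK7, KLK9, KLK11, KLK13 and KLK14 each had at least 1 such window. Windows of the same gene can overlap and hold the same site, so they are not separate counts. The letters TATAAA, a core promoter element, were in 11.5% of all windows on either strand. TGANTCA, the site of AP-1, was in 7.71%. CACGTG, an E-box, was in 7.26%. AACCGGTT, the site of grainyhead factors, was in 0.134%. None of these 4 was found in the windows of the members (KLK8 had no entry). These matches are a description of the letters and were not tested.

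WDR5 was measured first as a check of the labels. Levels are given as CPM, counts per 1000000 counts of the library after TMM scaling. WDR5 was at 52.6, 48.5 and 51.3 CPM in the shLuc libraries and 23.4, 24.4 and 20.8 CPM in the shWDR5 libraries. The groups did not overlap, and WDR5 fell by 1.15 on the log2 scale (SE 0.0737, adjusted p = 8.67e-07, edgeR quasi-likelihood test).

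The libraries were checked for markers of breast epithelium. The list of 8 held the basal genes KRT5, KRT14, KRT17 and TP63, the general epithelial genes EPCAM and CDH1, EGFR, and KRT18, a keratin of luminal cells. All 8 were tested. In shWDR5 cells the 4 basal genes were called higher, the 3 genes EPCAM, CDH1 and EGFR lower, and KRT18 was not called. Over all genes tested, 56.5% were called at an adjusted p under 0.05, 26.6% higher and 29.9% lower. Levels per gene length are given as RPKM (reads per kilobase of gene length, on the same scale as CPM). Together the 8 markers reached 2878 to 3095 RPKM in the shLuc libraries and 4197 to 4733 RPKM in the shWDR5 libraries, without overlap. KRT17 led, with KRT18 second at 856 RPKM on average. ESR1 and PGR, the hormone receptors absent from basal-like lines, together stayed between 0.421 and 0.588 RPKM. Of the markers of other cell types, the defining genes LUM (fibroblasts) and CD3E (T cells) had no count in any library. The summed level of the 5 fibroblast markers was 2.52 to 3.99 RPKM, mainly COL1A1, that of the 5 immune markers 6.07 to 7.93 RPKM, mainly CD68, and that of the 3 endothelial markers 1.05 to 1.79 RPKM, mainly PECAM1. COL1A1, CD14 and PECAM1 fell in shWDR5 cells, each 1 of 2 tested genes of its list, where 29.9% of all genes tested were called lower. CD68 was not called. PTPRC and COL1A2, not tested, had at most 7 reads per library, with more in shWDR5 cells. The part of these markers in the kallikrein values was not tested.

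KLK5 dominated the locus. Averaged over the 6 libraries its level was 381 RPKM, the 139th highest of the 16117 genes that passed the filter on low counts. KLK10 followed at 22.7 RPKM, KLK6 at 19.6, KLK9 at 4.56, KLK14 at 1.14 and KLK7 at 0.254 RPKM. KLK8, KLK13, KLK11 and KLK12 did not pass the filter, with mean levels of 0.201, 0.078, 0.0473 and 0.0034 RPKM. In shLuc cells the RPKM values of neighbours in this order did not overlap from KLK5 down to KLK7, whereas those of KLK7 and KLK8 did. In shWDR5 cells KLK6 moved above KLK10, with 21.5 to 30.3 RPKM against 15.7 to 20.3 RPKM. The trypsin-like enzyme KLK5 was thus the main kallikrein RNA in every library, and KLK7, the chymotrypsin-like partner of KLK5 in skin, was near the limit of the filter.

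**Figure D1:**
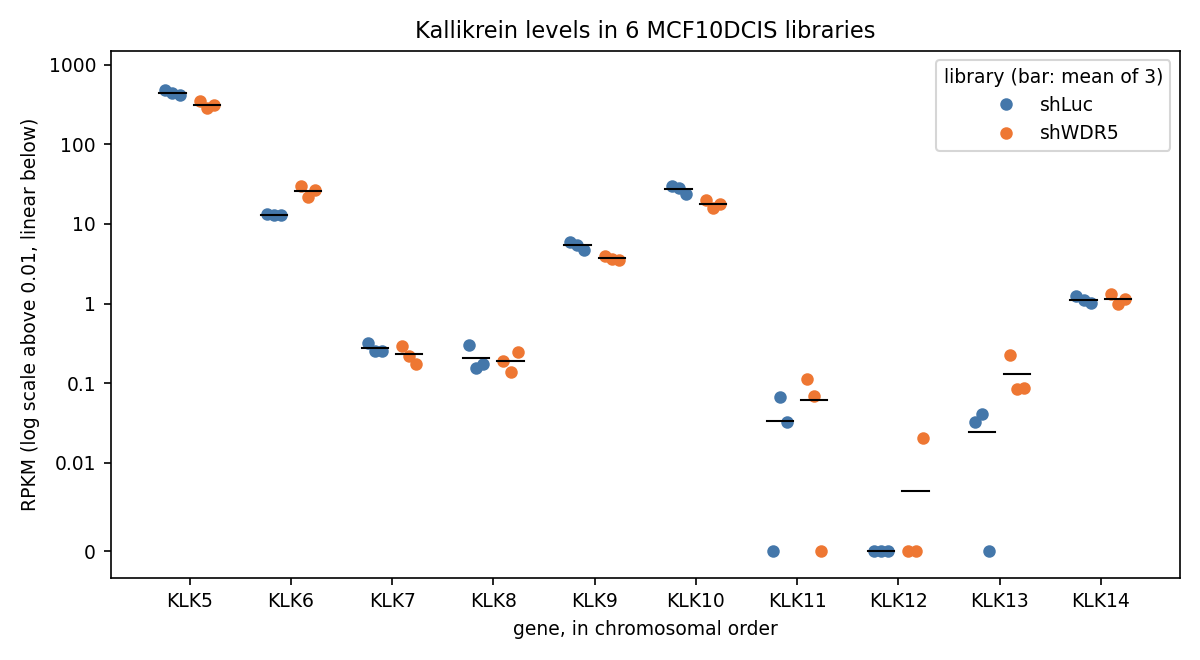
Level of each member in RPKM (vertical axis, log scale above 0.01 and linear below) in the 3 shLuc (blue) and 3 shWDR5 (orange) libraries, with the mean of each group as a bar. KLK5, KLK9 and KLK10 are lower and KLK6 is higher in every shWDR5 library than in any shLuc library, and 4 members lie near 0.

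Upon WDR5 silencing, KLK5, KLK9 and KLK10 fell and KLK6 rose, by between 1.42-fold and 1.99-fold, while KLK7 and KLK14 did not pass the test. Thus 4 of the 6 members tested were called at an adjusted p under 0.05 (66.7%), 1 higher and 3 lower. In the same fit 56.5% of all genes tested were called, 26.6% higher and 29.9% lower, so the share of members called was near the background of this comparison. The 4 called members were also those whose groups did not overlap, as was the case for 62.3% of all genes tested. A stricter call rule asked for an absolute log2 fold change of at least 0.6 and a mean above 0.5 RPKM in at least 1 group. KLK6 (higher) and KLK10 (lower) met it, beside 18.4% of all genes tested, 7.9% higher and 10.5% lower. KLK10, at -0.62, fell short of 0.6 in some alternative fits. In these bulk samples fewer cells expressing a gene and less RNA per cell cannot be told apart.

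KLK5, the trypsin-like enzyme that starts the epidermal cascade, was at 752, 687 and 654 CPM in the shLuc libraries and 547, 444 and 487 CPM in the shWDR5 libraries. Every shWDR5 library was below every shLuc library. The change was -0.50 on the log2 scale (SE 0.0801, 95% interval -0.68 to -0.32, adjusted p = 0.000371), a level 1.42-fold lower. In counts, the 3 shLuc libraries held 37167, 26651 and 26382 KLK5 reads, so counting error was small beside the spread between libraries.

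KLK10, whose product has little known protease activity, was at 97.7, 93.3 and 79.3 CPM in shLuc and 66.6, 51.5 and 58.4 CPM in shWDR5 libraries. The groups were separate, with the lowest shLuc library above the highest shWDR5 library. KLK10 fell by 0.62 on the log2 scale (SE 0.101, 95% interval -0.84 to -0.39, adjusted p = 0.000457), a level 1.53-fold lower.

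KLK9, one of the least studied members, was at 8.46, 7.92 and 6.86 CPM in shLuc and 5.70, 5.28 and 5.12 CPM in shWDR5 libraries. Here too the groups were separate. Its change was -0.53 on the log2 scale (SE 0.0984, 95% interval -0.75 to -0.31, adjusted p = 0.000968), or 1.45-fold lower.

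KLK6, a trypsin-like enzyme also known as neurosin for its abundance in brain, moved the other way. It was at 23.1, 22.0 and 22.2 CPM in shLuc and 51.9, 36.8 and 45.4 CPM in shWDR5 libraries. The shLuc values lay close together, with an SD of 2.59% of the mean, whereas the shWDR5 values spread more, with an SD of 16.9% of the mean. KLK6 rose by 0.99 on the log2 scale (SE 0.109, 95% interval 0.75 to 1.24, adjusted p = 2.92e-05), a level 1.99-fold higher. Among all genes tested, 5.27% had a log2 fold change at least as high as KLK6, and 12.1% had one at least as low as KLK10.

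KLK14, a trypsin-like activator of the cascade at the far end of the span, was at 1.40, 1.26 and 1.14 CPM in shLuc and 1.51, 1.13 and 1.30 CPM in shWDR5 libraries. The groups overlapped. The fitted change was 0.035 on the log2 scale (SE 0.163, adjusted p = 0.873), and its 95% interval of -0.33 to 0.40 leaves room for a change in either direction. KLK7 was at 0.688, 0.542 and 0.545 CPM in shLuc and 0.626, 0.475 and 0.375 CPM in shWDR5 libraries, again with overlapping groups. With 17 to 34 reads per library, its fitted change of -0.28 on the log2 scale (SE 0.243, 95% interval -0.82 to 0.26, adjusted p = 0.356) had a wide interval. It was -0.13 without shLuc replicate 1, -0.13 without shWDR5 replicate 3 and -0.47 without shWDR5 replicate 1.

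**Figure D2:**
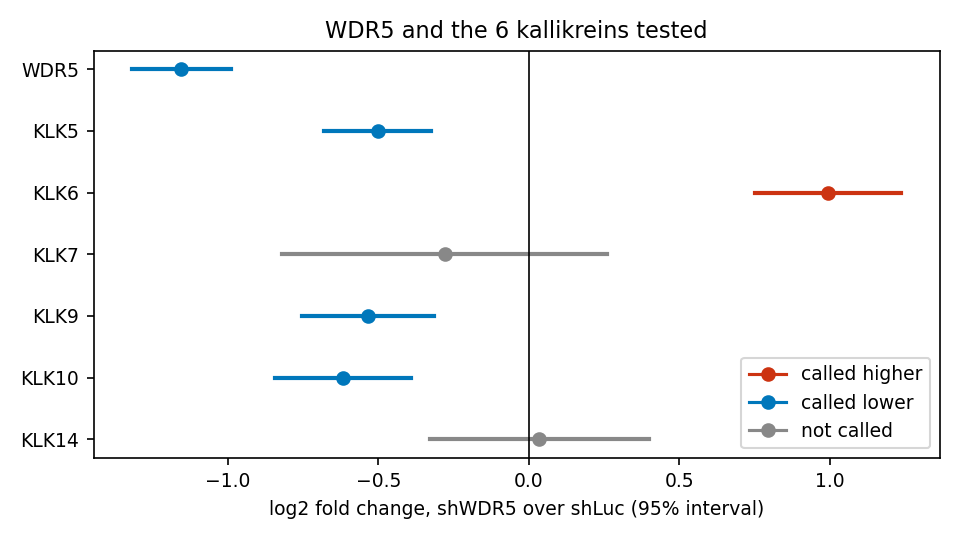
Log2 fold change of shWDR5 over shLuc (horizontal axis) for WDR5 and the 6 members tested, as points with 95% intervals from the edgeR fit. WDR5, KLK5, KLK9 and KLK10 (blue) lie below 0, KLK6 (red) lies above 0, and the intervals of KLK7 and KLK14 (grey) cover 0.

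The other 4 members had too few reads for the test. KLK8, or neuropsin, had 17, 7 and 8 reads in shLuc and 10, 9 and 13 in shWDR5 libraries. KLK11 had 0, 4 and 2 reads in shLuc and 8, 6 and 0 in shWDR5 libraries. For these genes the groups overlapped. KLK12 had no read in the 126045975 counts of the shLuc group, which allows up to 0.0238 CPM of the unscaled total (3 counts, counting error only), and a single read in the shWDR5 group. KLK13 had 2, 2 and 0 reads in shLuc and 13, 6 and 5 in shWDR5 libraries, so its groups did not overlap, but all its counts lay near the floor and it was not tested in the filtered fit.

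The 10 members together made up 0.0901%, 0.0825% and 0.0784% of the counts of the shLuc libraries and 0.0654%, 0.0532% and 0.0588% of those of the shWDR5 libraries. KLK5 alone gave 85.1% ± 0.497 (SD, n = 3) of the kallikrein reads in shLuc and 81.6% ± 0.593 (SD, n = 3) in shWDR5 cells. The KLK6 share went from 2.74% ± 0.147 to 7.37% ± 0.477, and the KLK10 share from 10.97% ± 0.554 to 9.73% ± 0.176 (SD, n = 3 each). Since these shares are taken within a library, they do not depend on how the libraries were scaled.

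Reads of KLK6, KLK9, KLK10 and KLK14 were also set against KLK5 reads of the same library, and those of KLK9 against KLK10, which needs no scaling. KLK6 had 3.07, 3.201 and 3.39 reads per 100 KLK5 reads in shLuc and 9.49, 8.29 and 9.32 in shWDR5 libraries. The log2 ratio of KLK6 to KLK5 was 1.49 higher in shWDR5 cells (-3.47 ± 0.105 against -4.96 ± 0.0721, SD, n = 3 each; exact permutation test, two-sided p = 0.1, adjusted p = 0.25 over 5 ratios). For 3 libraries against 3 this p is the smallest the test can give, so the design cannot reach 0.05. KLK6 was higher and KLK5 lower in every shWDR5 library than in any shLuc library. Their ratio therefore had to separate the groups, and its p adds nothing to the calls of the genes.
KLK10 had 12.99, 13.6 and 12.1 reads per 100 KLK5 reads in shLuc and 12.2, 11.6 and 12.0 in shWDR5 libraries, and the groups overlapped (exact permutation test, two-sided p = 0.2 and 0.333 adjusted, n = 3 each). KLK9 had 1.12, 1.15 and 1.05 in shLuc and 1.04, 1.19 and 1.05 in shWDR5 libraries (exact permutation test, two-sided p = 0.9 and 0.9 adjusted, n = 3 each). Thus the ratios of KLK9 and KLK10 to KLK5 differed between groups by -0.02 and -0.11 on the log2 scale. KLK6, which lies only 5.542 kb from KLK5, shifted against it, as the opposite changes of these genes require. The KLK14 ratio was 0.186, 0.184 and 0.174 in shLuc and 0.276, 0.253 and 0.267 in shWDR5 libraries (exact permutation test, two-sided p = 0.1 and 0.25 adjusted, n = 3 each), without overlap. KLK9 had 8.66, 8.49 and 8.65 reads per 100 KLK10 reads in shLuc and 8.55, 10.2 and 8.77 in shWDR5 libraries, and the groups overlapped (exact permutation test, two-sided p = 0.3 and 0.375 adjusted, n = 3 each).

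**Figure D3:**
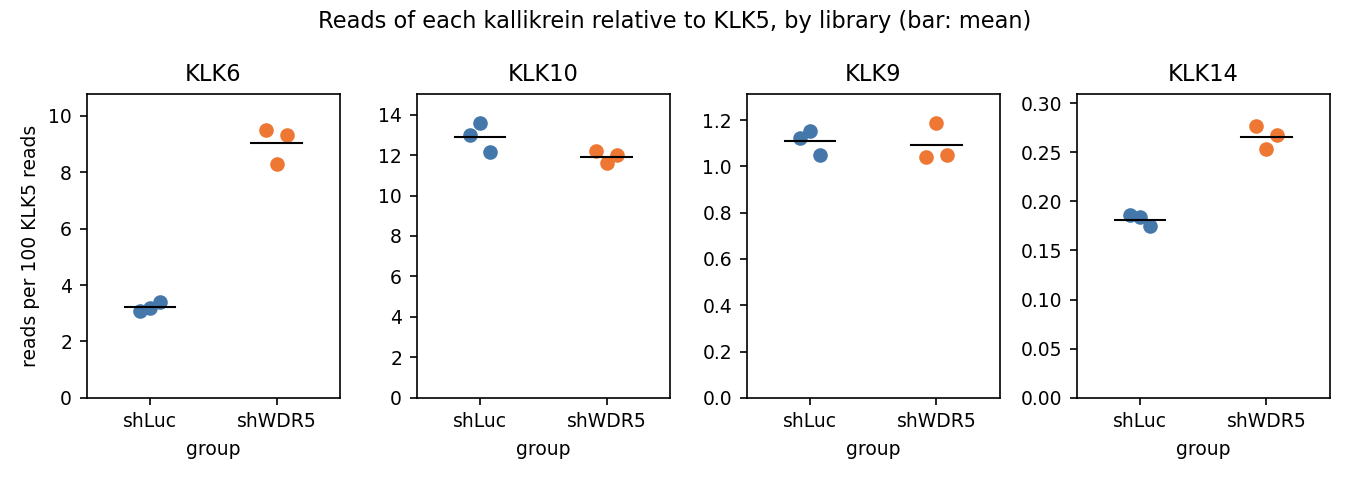
Reads of KLK6, KLK10, KLK9 and KLK14 per 100 KLK5 reads (vertical axes from 0, one scale per gene) in each shLuc (blue) and shWDR5 (orange) library, with group means as bars. The KLK6 values go from 3.07 to 3.39 in shLuc to 8.29 to 9.49 in shWDR5 libraries, whereas those of KLK9 and KLK10 overlap between the groups.

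The remaining kallikreins of the locus, KLK1, KLK2, KLK3, KLK4, KLK15 and the pseudogene KLKP1, lie before KLK5 and include the prostate proteases KLK2 and KLK3. None of the 6 passed the filter. KLK4 had 6, 3 and 8 reads in shLuc and 12, 6 and 17 in shWDR5 libraries, and the groups overlapped. KLK1, the tissue kallikrein that releases kinins, had 5, 2 and 5 reads in shLuc and 2, 0 and 0 in shWDR5 libraries. The other 4 had at most 2 reads in any library.

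Of the 41 other genes within 500 kb of the span, 17 were tested, and 8 were called higher and 1 lower (background 26.6% and 29.9%). Their median log2 fold change was 0.28, beside -0.01 for all genes tested. On the side before KLK5, 7 of 10 tested genes were higher and none was lower, and past KLK14, 1 of 7 was higher and 1 lower. This split by side was not planned, and the difference between the sides was not tested. The 4 called neighbours with the largest changes were VSIG10L, which fell by 1.24 on the log2 scale (SE 0.125, adjusted p = 1.68e-05), and ASPDH, CLEC11A and LRRC4B, which rose by 1.12 (SE 0.162, adjusted p = 0.000187), 1.09 (SE 0.135, adjusted p = 6.69e-05) and 0.95 (SE 0.277, adjusted p = 0.0133). The LRRC4B call was lost without shLuc replicate 3 (adjusted p = 0.0537). CLEC11A encodes a secreted growth factor of the C-type lectin family. CTU1, a tRNA-modifying enzyme gene 13.361 kb past KLK14, was chosen after its values were seen as the nearest tested gene and was the 1 gene called higher on that side. Its groups overlapped at 0.46 (SE 0.172, adjusted p = 0.0414), and the call held in 7 of 12 alternative fits, with an adjusted p of up to 0.168. The log2 fold change was 0.76 without shLuc replicate 1 and 0.30 without shLuc replicate 2. The call was lost with library totals and without shLuc replicate 2, shLuc replicate 3, shWDR5 replicate 1 or shWDR5 replicate 2.

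**Figure D4:**
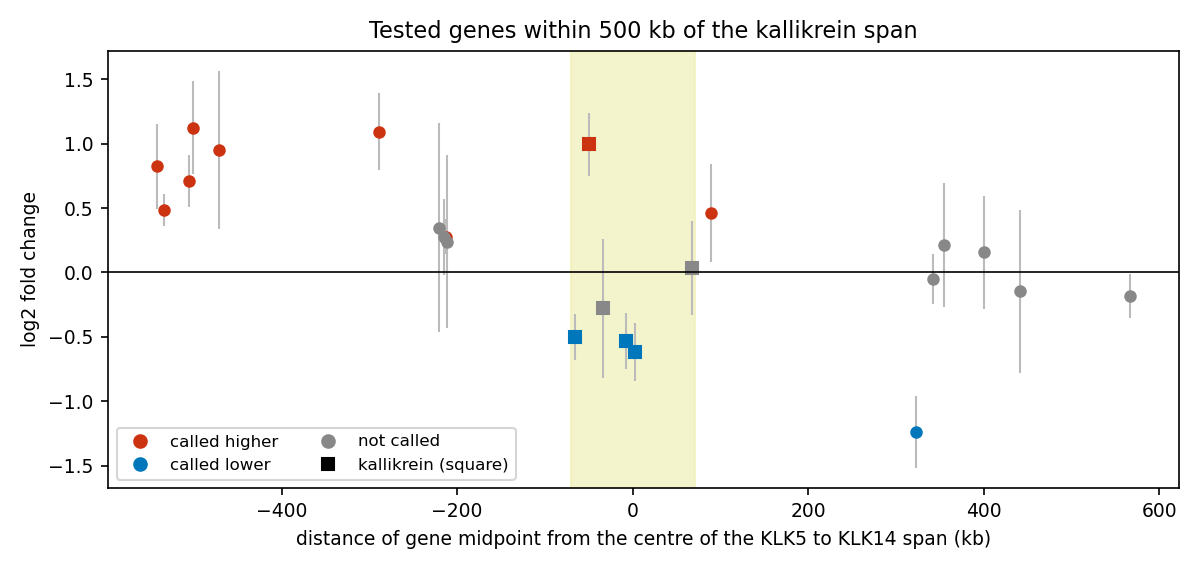
Log2 fold change of shWDR5 over shLuc (vertical axis, 95% intervals) for tested genes within 500 kb, against the distance of each gene's midpoint from the centre of the span in kb (shaded). Squares are kallikreins and circles are neighbours; KLK5, KLK9 and KLK10 lie below 0 inside the span, and KLK6 lies above.

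Genes that act on kallikreins or are acted on by them were described from lists. Of 11 kallikrein inhibitors, 10 were tested, and 7 were higher and 3 lower in shWDR5 cells (all 10 called, where 56.5% of all genes tested were called, 26.6% higher and 29.9% lower). SERPINA4 and SPINK6 met the filter in shWDR5 libraries alone, so they had to be higher there. Without them 5 of 8 were higher and 3 lower, and the median log2 fold change was 0.50 in place of 0.85, beside -0.01 for all genes tested. SERPINA3, the serpin with the highest level of the list, was at 511 ± 50.3 RPKM in shLuc and 998 ± 78.7 RPKM in shWDR5 cells (SD, n = 3 each), and rose by 0.97 on the log2 scale (SE 0.0807, adjusted p = 4.64e-06). SLPI, a secreted inhibitor of leukocyte and skin proteases, went from 56.5 ± 3.31 to 146 ± 17.6 RPKM and rose by 1.37 (SE 0.0883, adjusted p = 9.14e-07). A2M, a broad protease trap, rose by 2.13 (SE 0.102, adjusted p = 1.82e-07) at a low level of 1.60 RPKM in shWDR5 cells. SERPINA4 (kallistatin) had 1, 1 and 2 reads in shLuc and 15, 13 and 15 in shWDR5 libraries, and SPINK6 had 2, 2 and 4 against 13, 16 and 18. The shLuc counts of both lay near the floor. SPINK5, the main epidermal inhibitor of KLK5 and chosen after its values were seen, was low and fell by 0.71 (SE 0.188, adjusted p = 0.00847), with 41 to 47 reads per shLuc and 27 to 37 per shWDR5 library. Its call was lost with DESeq2 (adjusted p = 0.0525), and the filter of at least 1 CPM in 3 libraries left it out. SPINT2, another of the 3 called lower and also chosen after its values were seen, was at -0.18 (SE 0.0624, adjusted p = 0.0323), and its call held in 6 of 12 alternative fits. It was lost with RLE factors, DESeq2 and the filter of at least 1 CPM, and without shLuc replicate 1 (-0.12), shWDR5 replicate 2 (-0.18) or shWDR5 replicate 3 (-0.13). The third gene called lower, SERPINA5, was also chosen after its values were seen. SERPINA5 fell by 0.76 (SE 0.0667, adjusted p = 6.43e-06), from 15.9 ± 0.654 to 9.38 ± 0.473 RPKM. Its call held in all 12 alternative fits.

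Among 8 proteases that can activate kallikrein precursors or their partners, only 4 were tested, and 3 were lower and 1 higher (background 29.9% lower and 26.6% higher). TMPRSS13, a membrane serine protease, fell by 1.57 on the log2 scale (SE 0.0828, adjusted p = 2.85e-07) from 3.69 ± 0.238 to 1.24 ± 0.0751 RPKM (SD, n = 3 each). PRSS8 (prostasin), a membrane-anchored serine protease, went from 74.6 ± 4.21 to 50.7 ± 4.37 RPKM and fell by 0.56 (SE 0.072, adjusted p = 8.93e-05). ST14 (matriptase), which can activate KLK5, fell by 0.28 (SE 0.0585, adjusted p = 0.00228) and was at 98.1 ± 4.13 RPKM in shWDR5 cells. PLAU, the urokinase plasminogen activator, rose by 0.30 (SE 0.0676, adjusted p = 0.00343).

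Of 12 receptors and substrates, 11 were tested, and 4 were higher, 2 lower and 5 not called. The share called, 54.5%, was near the background of 56.5%. Without FLG (filaggrin), which met the filter in shWDR5 libraries alone, 3 of 10 were higher and 2 lower. FN1 (fibronectin) had the highest level of the list and rose by 2.62 on the log2 scale (SE 0.0812, adjusted p = 2.86e-08), from 123 ± 6.61 to 752 ± 76.8 RPKM (SD, n = 3 each). CDH1 (E-cadherin) fell by 1.03 (SE 0.0533, adjusted p = 2.64e-07), from 103 ± 4.24 to 50.3 ± 1.43 RPKM. CDSN, the corneodesmosome protein cut by KLK5 and KLK7, rose by 0.99 (SE 0.131, adjusted p = 0.000107) at 1.30 ± 0.186 and 2.60 ± 0.337 RPKM. FLG had 3, 2 and 0 reads in shLuc and 49, 51 and 50 in shWDR5 libraries. F2RL1, a protease-activated receptor that KLK5, KLK6 and KLK14 can cut, was chosen after its values were seen. It fell by 0.74 (SE 0.0652, adjusted p = 6.77e-06), from 15.3 ± 0.608 to 9.18 ± 0.465 RPKM. F2R, another protease-activated receptor of the list, was chosen likewise and rose by 0.74 (SE 0.12, adjusted p = 0.000404), from 1.14 ± 0.177 to 1.90 ± 0.144 RPKM. The other such receptors, F2RL2 and F2RL3, were not called.

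Late epidermal differentiation genes are made in the same outer layers of skin as the kallikreins. Of 15 listed, 11 were tested, with 3 higher, 3 lower and 5 not called. These shares, 27.3% in each direction, were near the background of 26.6% higher and 29.9% lower, and the median log2 fold change was -0.03. SPRR3 and SPRR2A, small proline-rich envelope proteins, rose by 1.68 (SE 0.209, adjusted p = 7.00e-05) and 1.24 (SE 0.105, adjusted p = 5.27e-06), and TGM1, the cross-linking transglutaminase, by 0.76 (SE 0.205, adjusted p = 0.00923). DMKN (dermokine) fell by 1.04 (SE 0.0598, adjusted p = 4.79e-07), and SPRR1B, the gene of the list with the highest level, fell by 0.47 (SE 0.107, adjusted p = 0.00336).

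**Figure D5:**
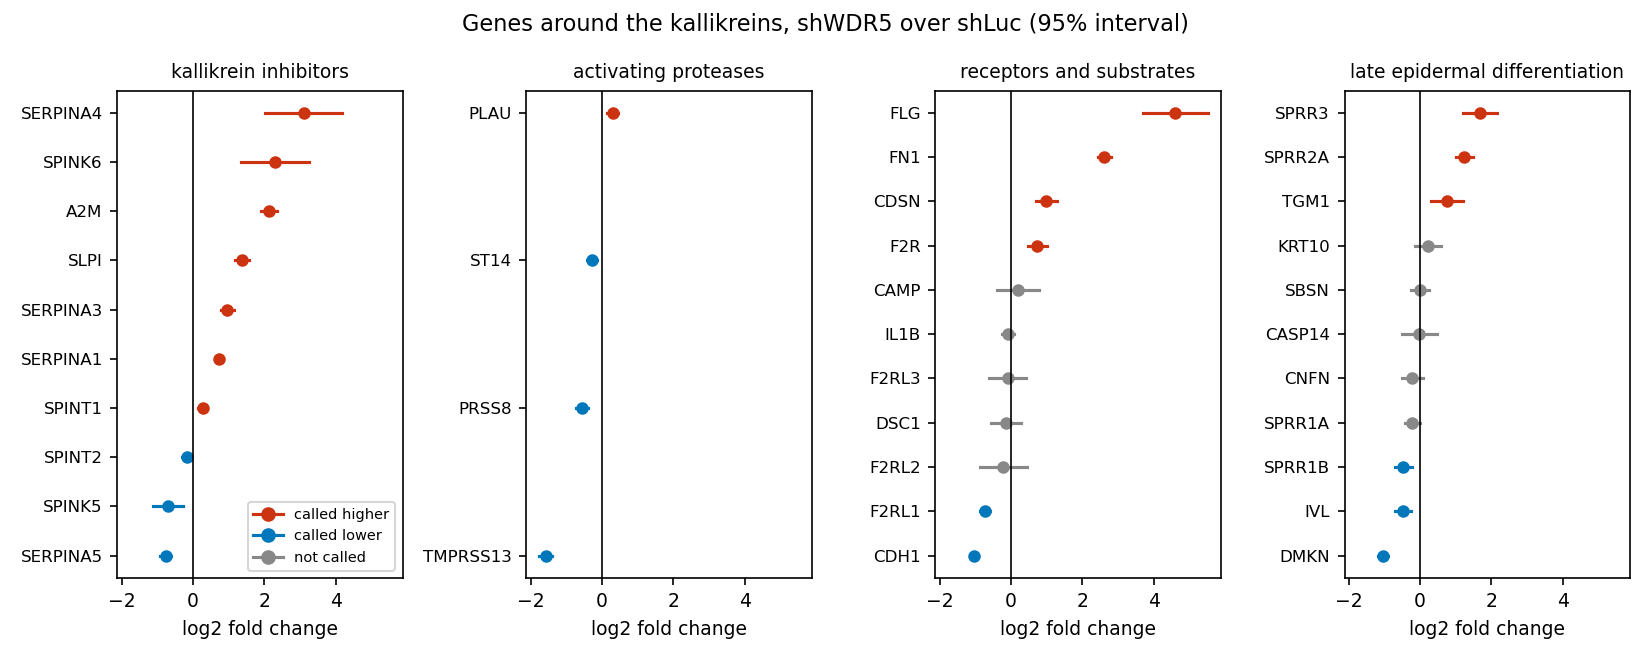
Log2 fold change of shWDR5 over shLuc (horizontal axis, 95% intervals) for the tested genes of 4 lists, in order of their change. Red genes were called higher, blue lower and grey were not called; 5 of the 8 inhibitors other than SERPINA4 and SPINK6 lie above 0, and SERPINA4, SPINK6 and FLG were tested through the shWDR5 group alone.

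The genes whose pattern was most like that of KLK5 were sought over the 6 libraries, by the Euclidean distance between log2 CPM values centred on each gene's mean. The nearest 5 of the 16117 genes tested, kallikreins left out, were COL1A1 (distance 0.0912), UBALD2 (0.118), PRSS8 (0.12), KCNK5 (0.12) and PPM1N (0.121). Their log2 fold changes lay between -0.61 and -0.48. This follows from the choice, since a small distance requires a change like that of KLK5. PRSS8 was the only gene of the context lists among them other than COL1A1 of the fibroblast markers.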

How the data were processed

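Poly(A) RNA libraries (TruSeq) of 3 shLuc and 3 shWDR5 MCF10DCIS samples were analysed from the gene counts the authors deposited, which per the labels were made with TopHat2 2.1.0 and featureCounts (hg19, GRCh37). The featureCounts version, annotation and strand setting are not given in the sources used here. A deposited table of the authors' own edgeR 3.2.2 comparison (fold changes and p-values) was not used. Groups came from the sample titles. Genes were filtered with filterByExpr (minimum count 10), scaled with TMM and tested with edgeR 4.0.16 (quasi-likelihood, R 4.3.3), with Benjamini-Hochberg adjustment over all 16117 genes and a threshold of 0.05. Standard errors were derived from the fold change and the F statistic. CPM and RPKM used TMM-scaled totals and, for RPKM, the gene length of the deposited table. The fit was run on simulated counts in which few genes were changed. That check does not cover data such as these, where 56.5% of genes tested were called. Intervals and floors cover counting error only where so stated. Alternatives were RLE factors, library totals, DESeq2 1.42.0, no filter, at least 1 CPM in 3 libraries, a replicate block, each library left out, and a stricter call rule (absolute log2 fold change at least 0.6 and RPKM above 0.5). These limits are those the study gives for its xenografts, and taking RPKM as the mean of at least 1 group was a choice made here. Leaving out genes that met the filter in 1 group alone was added after seeing the data. The ratios between members and the split of the neighbours by side were not planned. Genes named by rule were the 10 members, WDR5 and up to 4 called genes with the largest change per list or among neighbours. The gene of each list with the highest level and the 5 genes nearest to the most abundant member were also named. SPINK5, SPINT2, SERPINA5, F2RL1, F2R and CTU1 were added after their values were seen. The members and lists were chosen with earlier results of these data known. Promoter sequences were from RefSeq (GRCh38.p14), and protein sequences were not used here.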

Additional observations from a re-analysis of the deposited data

How the results depend on the processing

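WDR5, KLK5, KLK6, KLK9 and KLK10 kept their direction and stayed past the threshold in all 12 alternative fits, with log2 fold changes of -1.21 to -1.09, -0.58 to -0.43, 0.87 to 1.12, -0.62 to -0.45 and -0.71 to -0.53. The stricter call rule, which asks for an absolute change of 0.6, was applied to the main fit alone. KLK5 (-0.50) and KLK9 (-0.53) were no longer called, whereas KLK6 and KLK10 were, 2 of 6 members beside 18.4% of all genes. KLK10 fell short of 0.6 with RLE factors (-0.599) and at least 1 CPM in 3 libraries (-0.598). It also did so without shLuc replicate 1 (-0.539) or shWDR5 replicate 2 (-0.528). KLK9 passed 0.6 without shLuc replicate 3 (-0.615). That rule left 1274 genes higher and 1688 lower in place of 4291 and 4821, and took the inhibitors to 4 higher and 1 lower, the activating proteases to 0 higher and 1 lower, the late differentiation genes to 1 lower and the neighbours to 4 higher. KLK13 was called higher without the low-count filter (2.28, adjusted p = 0.0246) but not by DESeq2 (2.42, adjusted p = 0.0544). KLK7, never called, ranged from -0.47 to -0.13 over the 11 alternatives that tested it. KLK14, never called, changed sign with library totals (-0.022) and ranged from -0.077 to 0.14 when single libraries were left out. Without the filter 1 of the other kallikreins (KLK1) was called lower, and leaving out single libraries gave 0 to 1 called higher (KLK4, without shWDR5 replicate 2). DESeq2 and the filter of at least 1 CPM in 3 libraries each left 1 inhibitor lower, RLE factors left 2 and leaving out single libraries 2 to 3, and DESeq2 and the fit without a filter each gave 3 activating proteases higher. The neighbours called lower went from 1 to 2 with library totals, and ranged from 1 to 2 when single libraries were left out.

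Same-numbered libraries of the groups deviated together by correlations of 0.372, 0.0358 and 0.116, so the numbers were not taken as pairs. With a replicate block 4901 genes were higher and 5511 lower, and 2 neighbours were lower, and the calls of the members did not change. Depth limited KLK7, KLK8, KLK11, KLK12 and KLK13, each with at most 34 reads in any library.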
